A study of Homo sapiens with 25 samples.

Results

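In control cells of MDA-MB-231, an established human line of basal-type, mesenchymal breast cancer, the regions called for trimethylated lysine 4 of histone H3 (H3K4me3) were set against those called for acetylated lysine 27 of the same histone (H3K27ac). A peak was taken as shared where it overlapped a peak of the other mark by at least 1 bp, and as held by 1 mark otherwise. On chromosomes 1 to 22 and X this gave 22211 H3K4me3 peaks and 42320 H3K27ac peaks, together 64531 of the 135906 peaks in the 4 peak lists of the series. Each list pools 2 of the 25 libraries, so 4 libraries stand behind the peaks described. The comparison asks which regulatory elements carry both marks, which carry 1, and which genes they belong to.

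The study profiled chromatin by immunoprecipitation and sequencing (ChIP-seq) in cells labelled control and in cells in which PML was silenced by a lentiviral short hairpin RNA. The sources used here do not say what the control cells received. The lists used beside the 2 control lists are the broad domains of PML, whose libraries name no condition, the control domains of LMNB1 and H3K9me3, and the knockdown peaks of H3K4me3 and H3K27ac. Cells were fixed with disuccinimidyl glutarate and then formaldehyde, and each list is pooled over its replicates. No spread between replicates can therefore be given, the read depth is unknown, and all values below are descriptions without a test.

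H3K4me3 is deposited by the SETD1 and MLL/COMPASS complexes and marks promoters, above all those rich in CpG dinucleotides, to which CXXC-domain proteins recruit these complexes. H3K27ac is written by the acetyltransferases p300 and CBP and marks active promoters and active enhancers alike. H3K4me3 with H3K27ac is the usual signature of an active promoter, while H3K27ac without H3K4me3 is typical of active enhancers. PML is the scaffold of PML nuclear bodies, LMNB1 (lamin B1) lines the inner nuclear membrane, and H3K9me3 marks heterochromatin.

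Sequences are given as examples of promoters with both marks, with H3K27ac only and with neither. The stretches are the 200 bp before the start of 4 genes, on the coding strand of the gene, taken from the hg38 reference genome. Capitals mark every CG and every run of the 7 letters TGANTCA, where N is any base. AP-1 factors (FOS and JUN dimers) bind the forms TGACTCA and TGAGTCA, so the pattern, called AP-1 letters below, is wider than their site. CKS2 (chr9:89310995-89311194, plus strand), a regulatory partner of cyclin-dependent kinases, was among the strongest promoters with both marks. S100A2 (chr1:153565845-153566044, minus strand), a calcium-binding protein of basal epithelium, and RFFL (chr17:35063708-35063907, minus strand), a ubiquitin ligase, had H3K27ac only in the main windows of 1 kb on either side of the start. ANGPTL4 (chr19:8363955-8364154, plus strand), a secreted lipase inhibitor linked to metastasis, had neither mark there. With windows of 2500 bp S100A2 had both marks and ANGPTL4 H3K27ac only, and with any transcript start of the gene S100A2 and RFFL had both and ANGPTL4 H3K27ac only, while CKS2 kept its class in all 7 settings tried.
CKS2: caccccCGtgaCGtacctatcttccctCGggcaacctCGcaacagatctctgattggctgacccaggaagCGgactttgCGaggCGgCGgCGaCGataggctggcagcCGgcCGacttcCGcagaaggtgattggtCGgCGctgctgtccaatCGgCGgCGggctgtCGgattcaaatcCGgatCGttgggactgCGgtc
S100A2: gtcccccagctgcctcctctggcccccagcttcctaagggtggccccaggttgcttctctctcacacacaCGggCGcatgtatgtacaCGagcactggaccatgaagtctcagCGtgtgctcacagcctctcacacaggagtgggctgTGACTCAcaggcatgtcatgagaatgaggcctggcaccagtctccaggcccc
RFFL: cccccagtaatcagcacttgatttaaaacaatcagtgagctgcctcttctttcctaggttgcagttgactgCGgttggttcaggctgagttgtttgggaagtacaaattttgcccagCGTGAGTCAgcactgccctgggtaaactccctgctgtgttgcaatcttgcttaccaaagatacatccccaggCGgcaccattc
ANGPTL4: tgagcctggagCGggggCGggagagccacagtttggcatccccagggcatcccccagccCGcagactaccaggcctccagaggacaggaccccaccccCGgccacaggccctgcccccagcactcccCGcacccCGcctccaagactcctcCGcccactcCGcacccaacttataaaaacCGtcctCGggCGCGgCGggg
The CKS2 stretch holds 22 CG and no AP-1 letters. The S100A2 and RFFL stretches hold 4 and 3 CG and 1 run of AP-1 letters each, and in RFFL that run follows directly on a CG. The ANGPTL4 stretch holds 13 CG.

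H3K4me3 peaks were mostly shared and H3K27ac peaks mostly were not. Of the H3K4me3 peaks, 16179 (72.8%) overlapped H3K27ac, and of the H3K27ac peaks, 17203 (40.6%) overlapped H3K4me3. That left 6032 peaks with H3K4me3 only and 25117 with H3K27ac only. In bases, the marks had 18.8 Mb in common, 59.8% of the 31.4 Mb under H3K4me3 and 35.1% of the 53.4 Mb under H3K27ac. Over all shared peaks, the median H3K27ac peak lay wholly (100%) inside H3K4me3, whereas the median H3K4me3 peak was covered over 78.0% of its length. Cover was not measured apart for peaks over 10 kb from a start. There the shared H3K27ac peaks were the wider, with a median of 1328 bp against 616 bp for shared H3K4me3 peaks. In 1156 cases 1 H3K4me3 peak spanned 2 H3K27ac peaks and in 86 cases 3 or 4. The shares rest on how many peaks were called: with only as many H3K27ac peaks as H3K4me3 peaks, chosen by fold enrichment, 50.3% of H3K4me3 peaks were shared.

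Shared peaks ranked higher than peaks with 1 mark, and shared H3K4me3 peaks were wider. The median H3K4me3 peak was 1452 bp wide where shared and 677 bp where not. The quartiles were 795 and 2215 bp against 442 and 1023 bp. For H3K27ac the medians were closer, 1132 and 935 bp, and among peaks with a −log10 q of at least 5 they were 1215 and 1216 bp. Fold enrichment over background is the authors' value for each peak and is used here only to rank peaks within 1 list. Shared H3K4me3 peaks had a median rank at the 60.4th percentile of their list and those without H3K27ac at the 32.4th. The corresponding values for H3K27ac were 62.6 and 42.2. Among H3K4me3 peaks of up to 624 bp (the narrowest 25%), 51.3% were shared, and among those over 1937 bp (the widest 25%) 96.5% were. A wider peak has more bases with which to meet the 1 bp criterion.

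Distance to the nearest transcript start set H3K27ac-only peaks apart from the other 3 classes. Of H3K4me3 peaks, 76.1% lay within 1 kb of an annotated start when shared and 75.1% when not, and 77.4% of shared H3K27ac peaks did. Of H3K27ac-only peaks, 13.7% did, beside 7.04% of 29113 points spaced evenly over the genome. Peaks were measured from their nearer edge while the points are single bases, so a peak reaches a start more easily than a point does. The median distance of H3K27ac-only peaks was 9077 bp, and 44.03% of them lay between 10 and 100 kb from a start. Their summits fell in introns in 62.9% of cases and between genes in 29.3%. CpG content split the classes in the same way. In a window of 500 bp on either side of the peak's summit or the start, CpG-rich means a GC content of at least 55% with an observed-to-expected CpG ratio of at least 0.6, and CpG-poor a ratio under 0.4. By that rule 47.0% of shared and 58.8% of H3K4me3-only peaks were CpG-rich, and 0.370% of H3K27ac-only peaks, beside 0.763% of the genome points. The H3K4me3 peaks without H3K27ac were thus narrower and weaker, more often CpG-rich, and about as often within 1 kb of a start as the shared ones, although a start lay inside the peak in 39.95% of them against 61.3%.

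**Figure D1:**
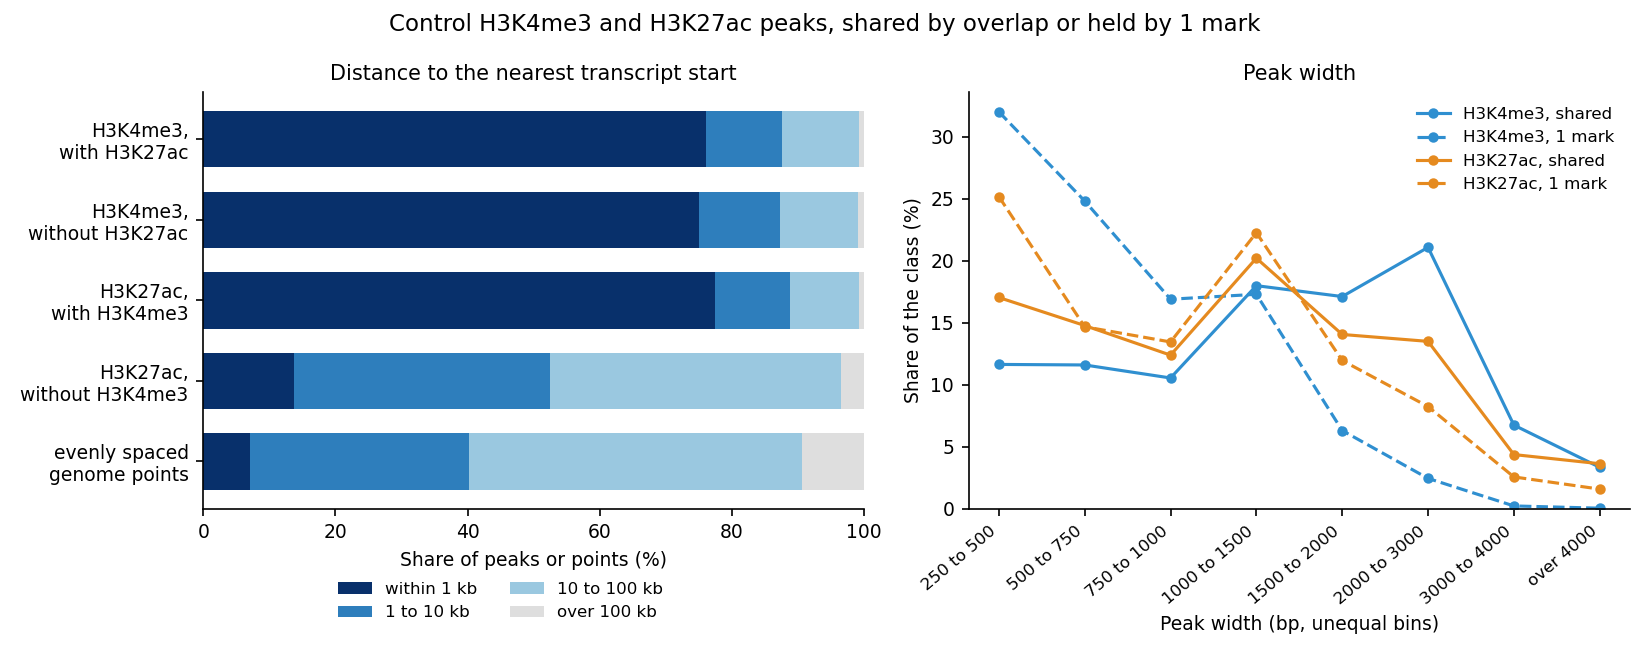
Left: share of control peaks (%) by distance to the nearest annotated transcript start, for H3K4me3 and H3K27ac peaks that overlap the other mark or do not, and for evenly spaced genome points. Right: share of each class (%) by peak width in unequal bins (bp). Within 1 kb of a start lie 76.1%, 75.1% and 77.4% of the first 3 classes and 13.7% of H3K27ac peaks without H3K4me3, and H3K4me3 peaks without H3K27ac fill the narrow bins (32.0% at 250 to 500 bp).

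Far from any start, the strongest peaks of each mark differed in width and CG content. Over 10 kb from a start stood 771 H3K4me3-only peaks and 11931 H3K27ac-only peaks. The H3K4me3-only peak with the highest fold there, 34.4, lay in an intergenic part of chromosome 22 at 12166265 to 12167461, 283 kb from the pseudogene ENSG00000286406 and 734 kb from any H3K27ac peak. How uniquely short reads can be placed at this chromosome 22 site was not tested, so the value of the peak is uncertain. The strongest H3K27ac-only peaks were broader. One of 5208 bp with a fold of 51.7 lay in a PML domain on chromosome 1 (218703438 to 218708645), 162 kb from the nearest start, of a U3 small nucleolar RNA gene. One of 3336 bp with a fold of 50.5 lay 26.7 kb from the non-coding gene RMEL3 on chromosome 5 (57365011 to 57368346). The next 3 lay near the non-coding genes LINC00382 (fold 50.1, 4000 bp), SENCR (49.3, 4737 bp) and ENSG00000223811 (48.4, 4108 bp). The 200 bp around the summits of the chromosome 22 peak and of the first pair of H3K27ac peaks, plus strand of hg38 and capitals as above, read as follows (chr22:12166621-12166820, chr1:218705658-218705857 and chr5:57366579-57366778).
H3K4me3 only, chromosome 22: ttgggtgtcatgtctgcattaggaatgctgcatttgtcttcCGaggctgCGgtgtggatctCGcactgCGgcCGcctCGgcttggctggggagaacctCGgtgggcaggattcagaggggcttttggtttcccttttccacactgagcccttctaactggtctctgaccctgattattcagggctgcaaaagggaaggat
H3K27ac only, near U3: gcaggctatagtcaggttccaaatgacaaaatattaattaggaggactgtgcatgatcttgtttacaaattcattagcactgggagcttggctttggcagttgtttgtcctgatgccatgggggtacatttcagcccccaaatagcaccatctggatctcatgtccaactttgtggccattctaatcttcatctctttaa
H3K27ac only, near RMEL3: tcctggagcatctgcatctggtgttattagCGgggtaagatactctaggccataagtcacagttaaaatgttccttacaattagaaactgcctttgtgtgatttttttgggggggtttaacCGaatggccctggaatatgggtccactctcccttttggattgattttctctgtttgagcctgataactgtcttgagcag
The H3K4me3 stretch holds 7 CG and the H3K27ac pair 0 and 2. None of the 3 holds AP-1 letters.

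Promoters were classed next, each as the canonical start of a protein-coding gene with 1 kb on either side, a mark being present where a peak reached into that window. Of 19970 promoters, 12347 (61.8%) had H3K4me3 and 10154 (50.8%) had H3K27ac. Both marks were present at 9934 (49.7%), H3K4me3 only at 2413 (12.1%), H3K27ac only at 220 (1.1%) and neither at 7403 (37.1%). H3K27ac was thus present at 80.5% of promoters with H3K4me3, while H3K27ac without H3K4me3 was rare at promoters although it was the largest class of peaks. Absence from a list means below the authors' threshold, not absence of the mark. With as many H3K27ac as H3K4me3 peaks, promoters with H3K4me3 only numbered 5046 and those with H3K27ac only 101. Windows of 2500 bp on either side gave 344 promoters with H3K27ac only.

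Promoters with H3K4me3 only were CpG-rich about as often as those with both marks, and differed from them in peak strength, width and the share with an annotated divergent start. Their median GC content was 67.03%, against 63.04% with both marks. CpG-rich promoters made up 81.0% of the promoters with both marks, 82.0% of those with H3K4me3 only, 9.09% of those with H3K27ac only and 26.3% of those with neither, against 60% of all. The median fold enrichment of the H3K4me3 peak was 20.9 with H3K27ac and 8.63 without, and its median width was 2039 and 931 bp. A start on the opposite strand within 1 kb upstream was present at 32.4% of promoters with both marks and at 12.4% of those with H3K4me3 only. Put the other way, 91.5% of 3517 H3K4me3 promoters with such a divergent start had H3K27ac, against 76.1% of 8830 without one. Within CpG-rich promoters the shares were 91.4% and 75.4%.

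The strength of the H3K4me3 peak and the presence of H3K27ac went together over the whole range. The 12347 H3K4me3 promoters were ordered by fold enrichment and cut into 10 bins of equal number. In the lowest bin, with folds of up to 6.63, 30.4% also had H3K27ac. In the bin from 15.6 to 18.4 the share was 88.6%, and in the highest, over 35.5, it was 99.7%, which left 4 promoters with H3K4me3 only. The order was the same by peak width, from 27.6% to 98.9%. CpG-rich promoters and the others followed 1 course: 28.1% and 37.7% in the lowest bin by fold, 69.98% and 67.2% between folds of 9.89 and 12.8, and 99.8% and 99.4% in the highest.

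**Figure D2:**
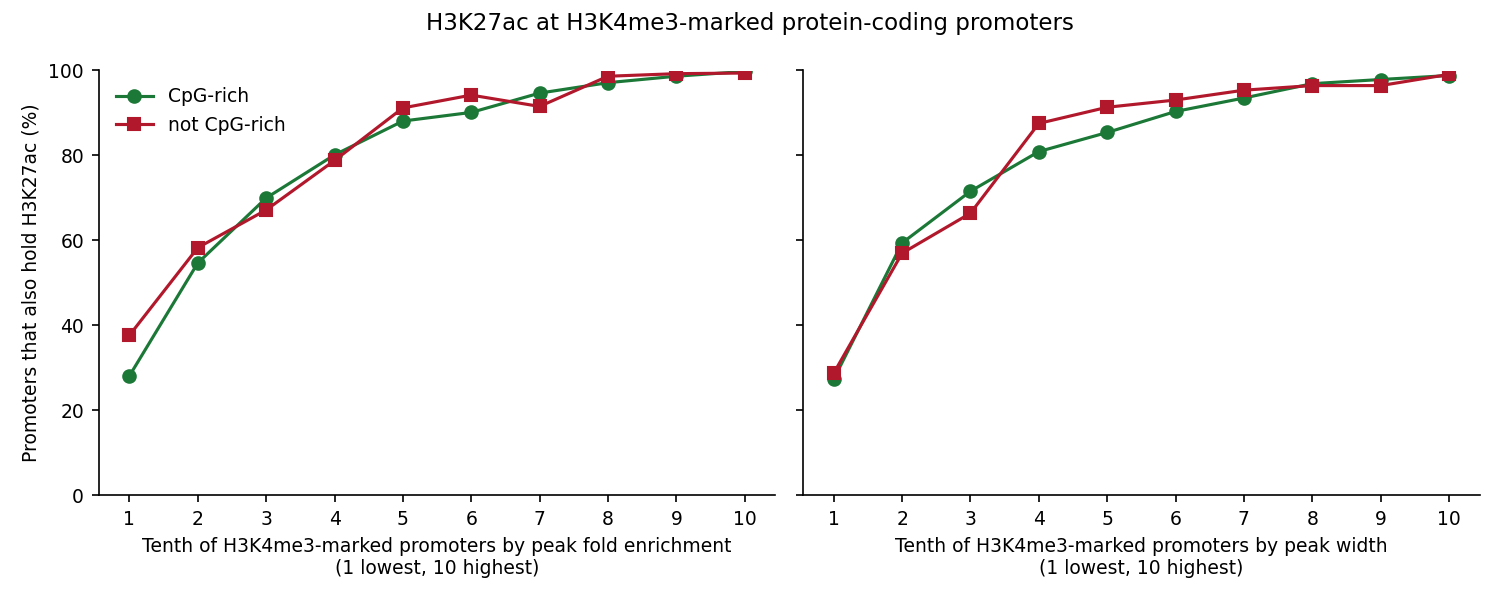
Share of H3K4me3-marked protein-coding promoters that also hold an H3K27ac peak (%, y axis), for 10 equal bins of promoters ordered by the fold enrichment (left) or the width (right) of their H3K4me3 peak, drawn for CpG-rich promoters and the others. The share climbs from 30.4% over all promoters in the lowest bin by fold to 99.7% in the highest, along the same course in both groups.

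Around the start, both marks left a dip just upstream and a maximum downstream where they occurred together. At promoters with both marks, H3K4me3 peaks covered 76.9% of promoters at 100 bp upstream and 92.5% at 600 bp downstream, and H3K27ac peaks 56.8% and 72.3% at 100 bp upstream and 400 bp downstream. H3K4me3-only promoters had the same shape at a lower level, with 43.2% at 100 bp upstream and 65.9% at 500 bp downstream. H3K27ac-only promoters had no such shape: cover was highest at 200 bp upstream (41.4%), lowest near the start at 600 bp downstream (21.8%), and 33.6% at 1000 bp downstream. The median H3K27ac summit stood at -175.5 bp, upstream of the start, in that class and at 124 bp downstream at promoters with both marks.

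**Figure D3:**
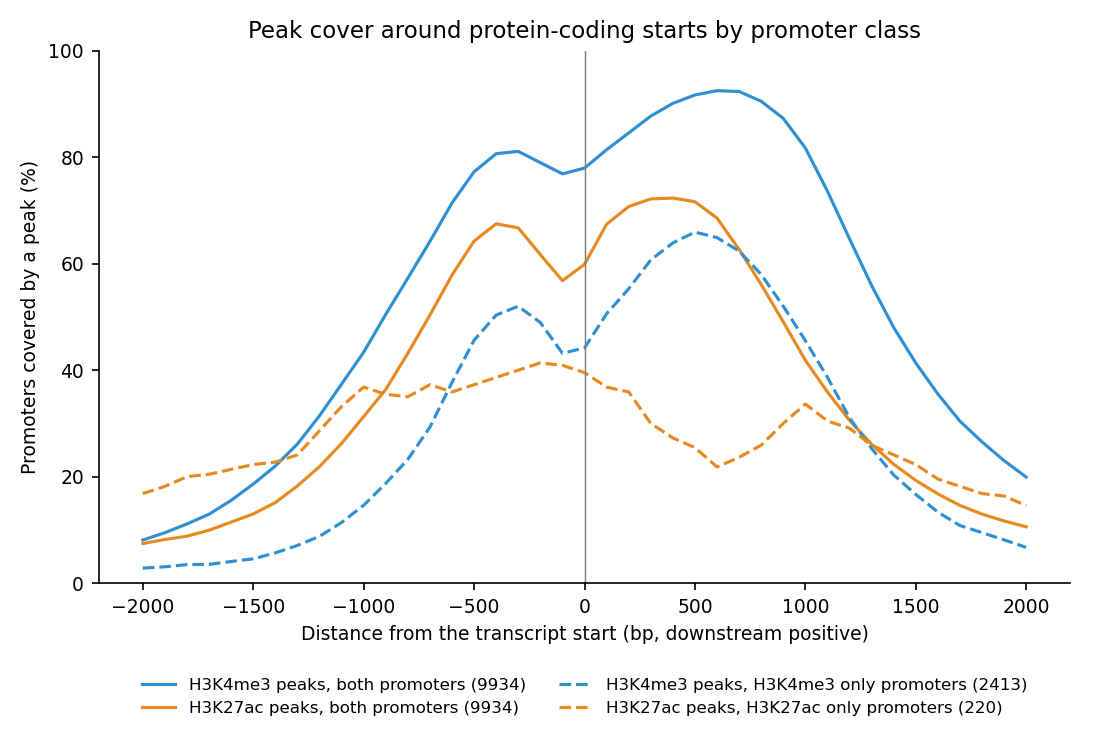
Share of promoters covered by a peak (%, y axis) by distance from the transcript start (bp, downstream positive), for H3K4me3 and H3K27ac peaks at promoters with both marks and for the single mark of the other 2 marked classes. Cover dips just upstream of the start and is highest downstream for both marks at promoters with both and for H3K4me3-only promoters, but not for H3K27ac-only promoters.

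Letters bound by known factors were counted in the 200 bp before the start, on both strands, among 11 short motifs. SP/KLF factors, activators of GC-rich promoters, bind GGGCGG, which was found in 69.4% of promoters with both marks, 77.0% with H3K4me3 only, 24.5% with H3K27ac only and 33.0% with neither. ETS factors bind CCGGAA, found in 27.4% of promoters with both marks and 13.1% with H3K4me3 only, beside 17.4% of all promoters. AP-1 letters (TGANTCA), by contrast, were found in 14.5% of H3K27ac-only promoters (32 of 220), beside 2.49% with both marks, 1.70% with H3K4me3 only, 5.79% with neither and 3.75% of all. At the summits of H3K27ac-only peaks over 10 kb from a start, where the window is 200 bp around the summit, AP-1 letters were found in 7.33%, close to the 6.22% of evenly spaced genome windows. The N in TGANTCA also admits A and T, and the forms with C or G were not counted apart, so these shares are for the wider pattern. A match is a description of letters and shows no binding.

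Marker genes were looked up next. Promoters of VIM, CD44, EGFR, AXL, CAV1, FN1 and PLAUR, genes of mesenchymal and basal-type breast cancer cells, had both marks. In the list of 20 mesenchymal and basal-type genes all 20 did, beside 49.7% of all promoters. Their median H3K27ac width was 2859 bp, against 1261 bp over all promoters with both marks. Other lists were wide as well: the median was 2309 bp in a list of housekeeping genes and 1874 bp in one of cell cycle genes. Examples are CD44, the hyaluronan receptor, with folds of 44.01 for H3K4me3 and 10.2 for H3K27ac, VIM (vimentin, an intermediate filament protein) with 30.2 and 8.81, and CAV1 (caveolin) with 25.7 and 19.1. The strongest H3K4me3 peaks of the list stood at ANXA1, an actin- and phospholipid-binding annexin, at 48.7, and MSN (moesin), a membrane-cytoskeleton linker, at 46.4. With equal numbers of peaks 17 of the 20 had both.

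Luminal and epithelial genes were divided among all 4 classes: 6 of 21 promoters had both marks, 7 had H3K4me3 only, 1 had H3K27ac only and 7 had neither. Over all promoters the shares were 49.7%, 12.1%, 1.1% and 37.1%, so the 33.3% of the list with neither was close to the general share. ESR1, the oestrogen receptor, had H3K4me3 only, at a fold of 4.86, as had ERBB2, the HER2 receptor (3.86), the adhesion molecule EPCAM (8.77), the splicing regulator ESRP1 (3.83), the pioneer factor FOXA1 (8.57) and the tight-junction claudin CLDN3 (5.37). All these folds lay below the median of 20.9 for promoters with both marks. Against the median of 8.63 over all promoters with H3K4me3 only, EPCAM and FOXA1 were close to it and the others lower. PGR, GATA3, CDH1 (E-cadherin) and GRHL2 had neither mark. These calls hold for the canonical start: with any transcript start of the gene ESR1, ERBB2, EPCAM and GATA3 had both marks, CDH1 H3K27ac only and PGR H3K4me3 only, and the list had 10 promoters with both and 3 with neither. FOXA1, CLDN3 and ESRP1 kept H3K4me3 only, and GRHL2 neither, in all 7 settings. Both marks were present at the simple-epithelium keratins KRT8 (27.5 and 6.44) and KRT18 (22.99 and 17.2), and at XBP1, a factor of the secretory stress response (31.2 and 14.8). TFF1, an oestrogen-induced secreted peptide, had H3K27ac only (5.14), and neither mark with equal numbers of peaks. Promoters of PTPRC, CD3E, PECAM1, ALB, GFAP and INS, markers of blood, endothelium, liver, glia and islets, had neither mark. Of 22 markers of other lineages, 19 had neither and none had both. With 2500 bp windows 16 had neither and 1 had both. With any transcript start 17 had neither, and GFAP had H3K27ac only. CD14 (10.1) and CD74 (6.02) had H3K4me3 only, and CD68 had H3K27ac only (4.03), and neither mark with equal numbers of peaks.

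Core cellular machinery carried both marks almost without exception, against 49.7% of all promoters. Of 84 genes of cytosolic ribosomal proteins 82 had both marks, and RPL10L and RPL3L, tissue-restricted copies, had neither. RPL9 had folds of 62.6 and 35.2 and RPS18 of 49.9 and 36.4. Both marks were present at 76 of 78 mitochondrial ribosomal protein genes, 33 of 34 aminoacyl-tRNA synthetases, 35 of 37 NDUF subunits of respiratory complex I, 45 of 48 proteasome subunits and 47 of 52 translation initiation factors. Single exceptions with H3K4me3 only were MRPS26, IARS2 and PSME1. For mitochondrial ribosomal proteins the count with both was 57 when peak numbers were equal. All 20 housekeeping genes had both marks, and so did 21 of 22 cell cycle genes, the exception being CCNE1 (cyclin E1), which had H3K4me3 only (7.13) and lies in PML, LMNB1 and H3K9me3 domains. With 500 bp windows CCNE1 had neither mark. Among the strongest promoters with both marks were DAZAP2 (65.3 and 68.7), the ribosome assembly factor LSG1 (78.3 and 55.2), the splicing factor SRSF5 (61.2 and 51.4), CKS2 (65.4 and 49.97) and CHURC1 (77.8 and 55.3), which shares its peaks with the read-through gene CHURC1-FNTB. All of the 10 strongest kept both marks in every setting tried.

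Potassium channels, WNT and FGF ligands and neurotransmitter receptors mostly had neither mark (76 of 95, 27 of 41 and 37 of 43), and those with H3K4me3 mostly lacked H3K27ac. Of 95 potassium channel genes, 58 of them CpG-rich, 18 had H3K4me3 only and 1, KCNQ5, had both (9.10 and 4.62). Over all promoters the shares were 12.1% and 49.7%. The strongest of the 18 were KCNS3 at a fold of 31.6, KCNMB4 at 22.9 and KCNK1 at 11.001. The numbers over all settings were 15 to 20 with H3K4me3 only and 0 to 5 with both. KCNQ5 lost H3K27ac with equal numbers of peaks, and KCNK1 had both marks with any transcript start. Of 41 WNT and FGF ligands, secreted signals of development, 12 had H3K4me3 only, among them WNT2B (13.7), FGF9 (13.1) and WNT9A (10.9), and WNT5A (18.3 and 3.27) and FGF5 (30.0 and 8.83) had both. Those with both numbered 1 to 5 over all settings: WNT5A lost H3K27ac at either q threshold and with equal numbers of peaks, and WNT2B had both with any transcript start. Of 43 GABA and glutamate receptor genes 5 had H3K4me3 only (GABRB1, GABRB2, GRIK2, GRM8 and GRIN2D), a share of 11.6% close to the 12.1% of all promoters, and GABRE had both. GABRE lost H3K27ac at either q threshold and with equal numbers of peaks. Their median H3K4me3 fold was 6.81 in the channels, 5.89 in the ligands and 10.1 in the receptors, against 8.63 over all promoters with H3K4me3 only.

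Transcription factors of development were divided between the classes, and not all in 1 direction. Over all promoters 49.7% had both marks, 12.1% H3K4me3 only, 1.1% H3K27ac only and 37.1% neither. In a group of developmental factors that includes the SOX, PAX, T-box and DLX families, 10 of 53 promoters had H3K4me3 only and 7 had both marks. SOX5 (23.7), SOX13 (12.7), TBX1 (9.87) and SOX2, a factor of stem cells (8.44), were in the first set, and SOX9 (25.7 and 6.76), SOX12 (21.6 and 6.52) and SOX4 (13.98 and 4.02) in the second. SOX15 had H3K27ac only, at 14.4. The order of the counts depends on the setting: 9 had both and 9 H3K4me3 only with 2500 bp windows, 11 and 10 with any transcript start, and 3 and 14 with equal numbers of peaks. SOX13 and TBX1 had both marks in the first pair of these settings, SOX4 lost H3K27ac in the last, and SOX2, SOX5, SOX9 and SOX12 kept their class in all 7. Of 43 LHX, NKX, IRX and POU factors 9 had H3K4me3 only, NKX2-8 (10.5) and LHX4 (9.26) leading, and 6 had both, among them IRX3 (19.7 and 12.1) and IRX5 (27.3 and 13.2). Of 51 forkhead factors 15 had both marks (29.4%) and 6 H3K4me3 only, a share of 11.8% close to the 12.1% of all promoters. The counts were 11 and 9 at a −log10 q of at least 10 and 8 and 13 with equal numbers of peaks. Of 39 HOX genes, which set position along the body axis, 30 (76.9%) were CpG-rich but 32 (82.1%) had neither mark. Of all promoters 60% were CpG-rich. HOXB6, HOXB9, HOXC5, HOXD1 and HOXD4 had both, HOXA13 had H3K4me3 only (5.85) and HOXB5 H3K27ac only (2.94). HOX genes with both numbered 9 with any transcript start and 2 with equal numbers of peaks or a −log10 q of at least 10. HOXC5 lost H3K27ac and HOXB5 its only mark at either q threshold and with equal numbers of peaks, while HOXB6 and HOXA13 kept their class in all 7 settings. Of 12 factors of epithelial-mesenchymal transition, ZEB1 (14.5 and 8.59), ZEB2 (12.7 and 4.87), SNAI2 (34.8 and 4.86) and FOXC1 (15.01 and 3.88) had both marks, SNAI1 (10.2) and SNAI3 (4.64) had H3K4me3 only, and TWIST1, TWIST2, PRRX1, GSC, FOXC2 and TCF4 had neither. With equal numbers of peaks only ZEB1 had both, and at a −log10 q of at least 10 ZEB1 and SNAI2 did. FOXC2 had both with 2500 bp windows and TCF4 with any transcript start.

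**Figure D4:**
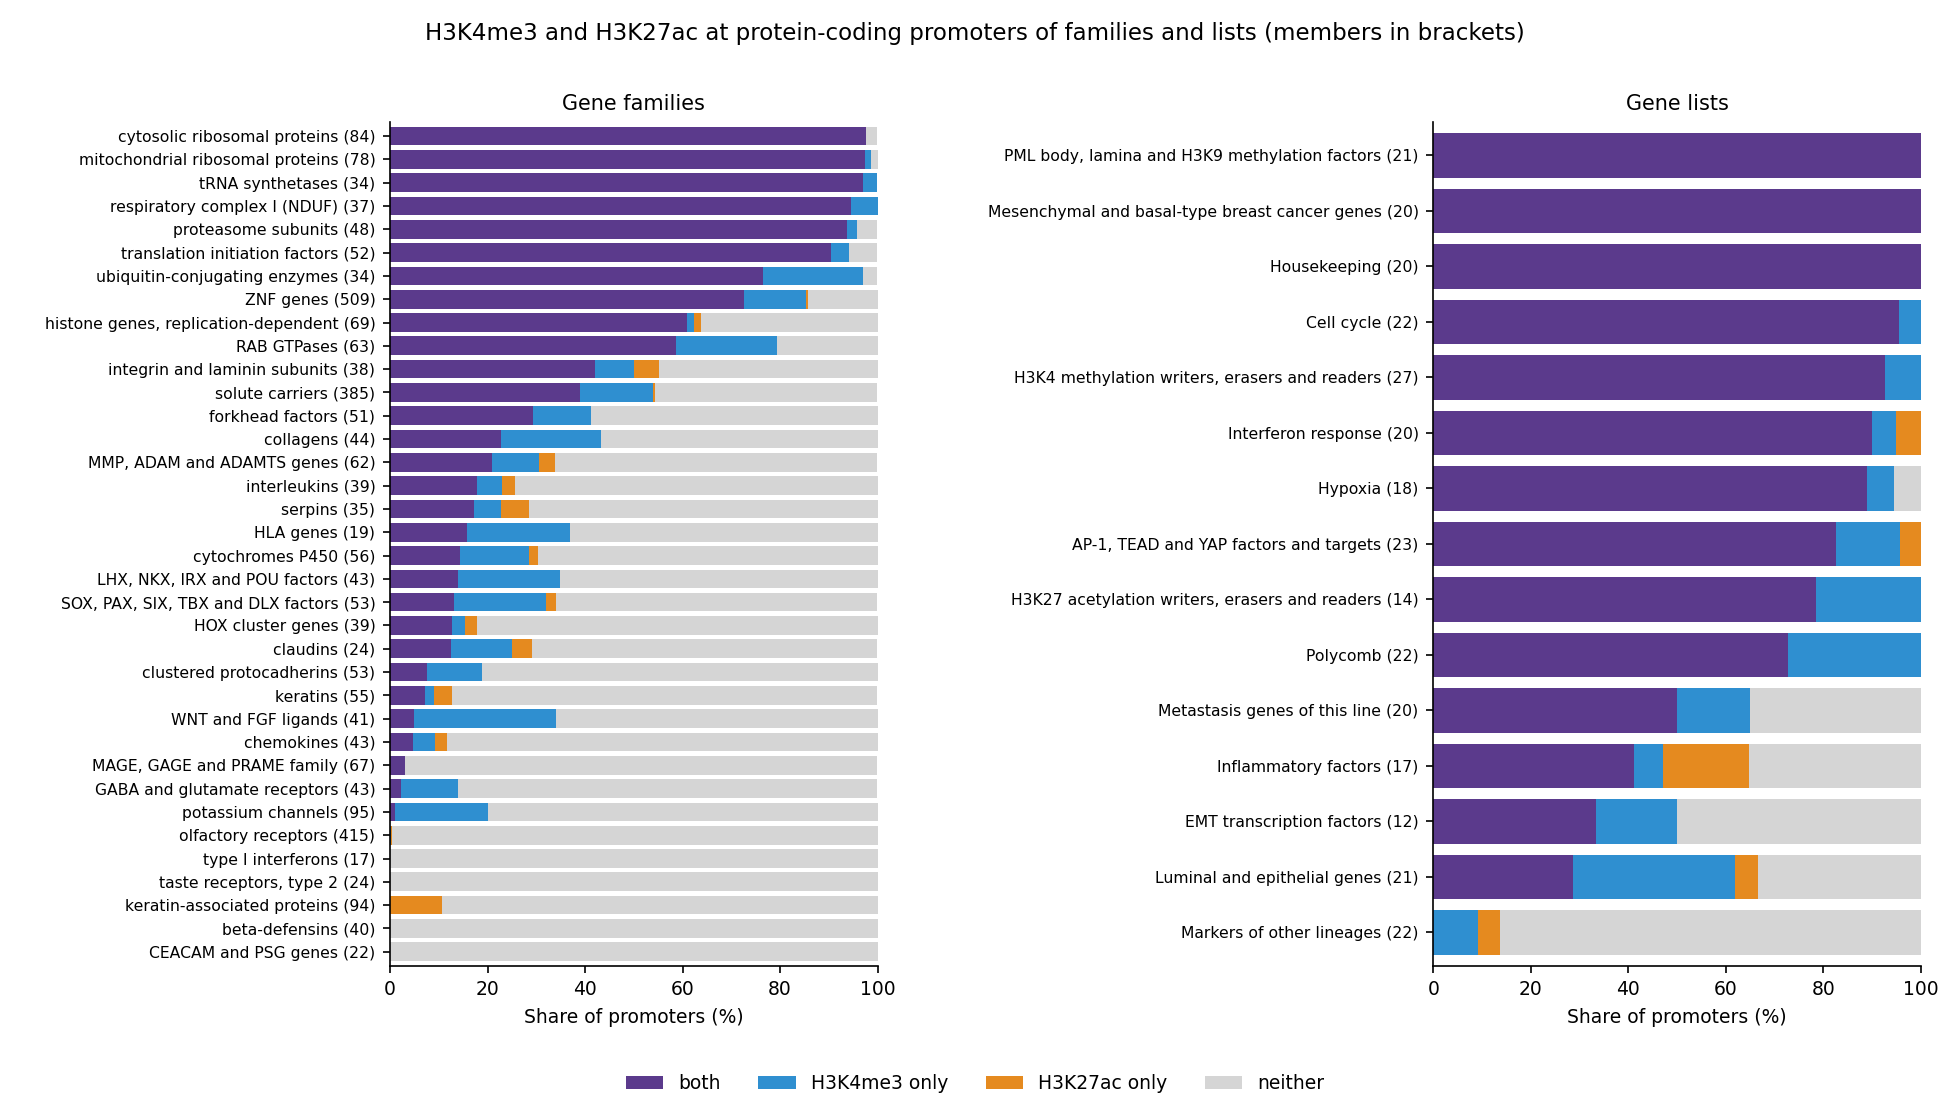
Share of protein-coding promoters (%, x axis) with both marks, H3K4me3 only, H3K27ac only or neither, for 36 gene families (left) and 15 gene lists (right), with the number of members in brackets. Ribosomal, proteasome and respiratory genes are almost all of the class with both marks, potassium channels and WNT and FGF ligands hold more H3K4me3 only (18 and 12) than both (1 and 2), and keratin-associated proteins hold H3K27ac only (10 of 94).

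Chromatin regulators were mostly of the class with both marks, against 49.7% of all promoters. All 21 genes for PML bodies, the lamina and H3K9 methylation had both, led by the heterochromatin proteins CBX3 (56.5 and 41.6) and CBX5 (55.03 and 25.8). PML stood at 21.9 and 4.11 and LMNB1 at 21.6 and 15.2. With equal numbers of peaks 13 of the 21 had both. Of 27 writers, erasers and readers of H3K4 methylation 25 had both, and the menin gene MEN1, at a fold of 30.9, and the demethylase gene KDM5B (15.2) had H3K4me3 only. Of 14 genes for the writing, removal and reading of H3K27 acetylation, CREBBP, which encodes CBP itself (19.7), MLLT3 (19.8) and KAT2A (4.23) had H3K4me3 only, while EP300, for p300, had both (18.5 and 8.32). Of 22 Polycomb genes 6 had H3K4me3 only, with RNF2 (25.8) and AEBP2 (20.0) the strongest. KDM5B, MLLT3 and AEBP2 had both marks when the window was 2500 bp on either side, and these and CREBBP did with any transcript start, while MEN1, KAT2A and RNF2 kept H3K4me3 only in all 7 settings. The acetylation list had 7 promoters with both and 6 with H3K4me3 only with 500 bp windows, and the Polycomb list 12 and 10 with equal numbers of peaks.

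Among signalling targets, 19 of 23 genes of the AP-1, TEAD and YAP list had both marks. CCN2 (43.4 and 12.9) and AMOTL2 (30.9 and 30.4), targets of YAP, and TEAD1 (36.7 and 13.6) and CCN1 (27.1 and 33.8) had the highest folds. LATS2, a kinase that restrains YAP, had H3K27ac only (8.14), with H3K4me3 0.064 kb beyond its window and both marks at 2500 bp, and BATF3, TEAD2 and TEAD3 had H3K4me3 only. Of 20 interferon-response genes 18 had both, IFIH1 (29.6 and 8.76), IFIT1 (28.8 and 12.6), IFI27 (26.3 and 8.37) and IFIT2 (25.2 and 16.6) leading. OAS3 (15.7) had H3K4me3 only and BST2 (4.64) H3K27ac only. With equal numbers of peaks 9 had both and 10 H3K4me3 only, and BST2 had neither. The median H3K27ac fold of the interferon genes with both marks was 5.84, against 8.36 over all promoters with both. Of 18 hypoxia genes 16 had both, with ADM at 30.2 and 26.6, while EPAS1 (HIF2A) had H3K4me3 only (10.4) and CA9 had neither. EPAS1 had both marks with 2500 bp windows or any transcript start, and its H3K4me3 peak met H3K27ac outside the window. Of 20 genes tied to metastasis of this line 10 had both, a share near the 49.7% of all promoters, among them the growth factor gene EREG (26.3 and 6.45) and the cyclooxygenase gene PTGS2 (26.3 and 6.43), and ANGPTL4, IL13RA2, MMP1, MMP2, SPARC, SPP1 and VCAM1 had neither. ANGPTL4, SPARC, SPP1 and VCAM1 had 1 mark with 2500 bp windows or any transcript start, and either setting left 4 of the list with neither.

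The 220 promoters with H3K27ac only had mostly CpG-poor starts, 80% of them against 3.45% of promoters with both marks. The strongest were SMIM6 (fold 32.2), the stomach gene GKN1 (30.1), MACC1, a regulator of MET in colon cancer (29.1), S100A2 (26.9), DYNLT4 (24.7) and RFFL (21.5), with GSG1 and ENSG00000289766 (28.2) on 1 shared peak. Of these 8 genes only SMIM6 kept the class in all 7 settings. With 2500 bp windows S100A2, DYNLT4, GSG1 and ENSG00000289766 had both marks, and their H3K27ac peaks met H3K4me3 outside the window. RFFL had both with any transcript start, and GKN1 and MACC1 had neither with 500 bp windows. In the list of 17 inflammatory factors, CSF2 (GM-CSF, 12.5), IL24 (7.44) and CXCL8 (interleukin 8, 6.72) were of this class, whereas IL6 (18.1 and 13.9), CXCL2 (17.8 and 16.6), CXCL3 and NFKBIA had both marks. CSF2 and CXCL8 kept the class in all 7 settings, and IL24 had neither mark with 500 bp windows. Keratin-associated proteins, the matrix of hair, gave 10 promoters with H3K27ac only and none of any other marked class among 94, on 10 distinct peaks, with KRTAP2-3 (15.7), KRTAP2-1 (14.1), KRTAP4-7 (13.1) and KRTAP4-9 (12.7) the strongest. They make up 10.6% of the family, against 1.1% of all promoters with H3K27ac only. All 10 lie in PML, LMNB1 and H3K9me3 domains together, and 67 of the 94 genes of the family lie in each of these domains. The number was 7 and 6 at a −log10 q of at least 5 and 10, and 5 with equal numbers of peaks. These genes are near-identical copies in tandem, among which short reads can be placed wrongly, so their values are uncertain. The hair keratin KRT34 (10.3) and the basal keratin KRT5 (3.55) had the same class, as had the serpins SERPINB5 (maspin, 3.58) and SERPINB7 (4.46). KRT34 had neither mark with 500 bp windows, and KRT5, SERPINB5 and SERPINB7 had neither at a −log10 q of at least 10 and with equal numbers of peaks.

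Some one-mark promoters had the other mark close by. Gaps to the other mark were counted from the edge of the promoter window, so 1500 bp beyond it is 2500 bp from the start. Of the 2413 promoters with H3K4me3 only, 203 had an H3K27ac peak within 1500 bp of the window, and the median gap was 19.8 kb. For the 220 with H3K27ac only, 24 had H3K4me3 within 1500 bp of the window and the median gap was 23.1 kb. The gene with the strongest H3K4me3-only promoter is such a case: the collagen genes COL4A5 and COL4A6 diverge from 1 H3K4me3 peak on chromosome X (108439232 to 108441414, fold 42.0), and COL4A5 counted as both marks (H3K27ac 8.85) while COL4A6 counted as H3K4me3 only, with H3K27ac 81 bp beyond its window (0.081 kb). CCDC71L (37.3) and TMEM65 (35.5) missed H3K27ac by 0.011 and 0.071 kb. By contrast, the insulin-signalling adaptor gene PID1 (32.9) lay 134.5 kb, KCNS3 (31.6) 96.9 kb and the zinc transporter gene SLC30A4 (31.5) 62.6 kb from the nearest H3K27ac peak, and none of these 3 changed class in any of 7 settings.

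Gene types other than protein-coding were marked less often. Of 18756 long non-coding RNA genes 3508 had both marks (18.7%), 788 H3K4me3 only and 740 H3K27ac only, against 23% with both over all 62062 genes. Non-coding starts with a divergent partner within 1 kb had both marks in 63.5% of 2506 cases and those without in 11.8% of 16250. Processed pseudogenes gave 95 starts with both marks, 75 with H3K4me3 only and 188 with H3K27ac only among 10007, and 96.4% had neither. H3K27ac only was the most frequent of their marked classes, but at 1.88% of starts, against 1.1% of protein-coding and 3.95% of long non-coding RNA genes. How often windows placed at random would meet such a peak was not counted. Of 3433 H3K27ac-only peaks within 1 kb of a start, 60.8% lay near a protein-coding gene's start, against 89.5% of H3K4me3-only peaks and 89.7% of shared H3K4me3 peaks.

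Domains of PML, LMNB1 and H3K9me3 held few peaks of either mark, and a higher share of what they held was H3K27ac only. PML domains cover 33.3% of evenly spaced genome points and held 10.1% of shared and 10.9% of unshared H3K4me3 peaks, and 17.8% of H3K27ac-only peaks. The same 4 values were 34.3%, 8.40%, 10.9% and 15.3% for LMNB1 and 21.6%, 4.50%, 6.70% and 8.82% for H3K9me3. Among H3K27ac peaks inside PML domains 28.2% were shared with H3K4me3, against 43.6% outside all 3 kinds of domain.

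At promoters, 13.1% of all protein-coding starts lay in PML domains, 12.4% in LMNB1 and 10% in H3K9me3 domains. Both marks were present at 34.0% of the 2612 promoters in PML domains, at 29.5% of 2468 in LMNB1, at 18.2% of 1997 in H3K9me3 and at 53.8% of 16415 in none of them. Neither mark was found at 56.2%, 60.5%, 73.6% and 32.2%. The domain lists overlap, and a start in several of them counts in each of these shares. Both marks were present at 52.7% of 357 starts in PML domains alone and 52.0% of 152 in LMNB1 alone. The share was 18.9% of 609 starts in H3K9me3 alone, 44.2% of 1049 in PML and LMNB1 only, and 15.8% of 1085 in all 3. CpG-poor starts numbered 1125 of the 2612 promoters in PML domains and 3466 of the 16415 in none, and the part of this in the gap was not tested. Among CpG-rich promoters alone, both marks were present at 58.7% in PML, 51.0% in LMNB1, 32.4% in H3K9me3 and 69.3% in no domain. The share with H3K4me3 only hardly moved, at 16.1%, 16.9%, 15.9% and 16.6%, so in that group the domains differed in the shares with both and with neither. H3K27ac was present at 78.5% of CpG-rich H3K4me3 promoters in PML domains, 75.1% in LMNB1, 67.0% in H3K9me3 and 80.7% in none. 

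**Figure D5:**
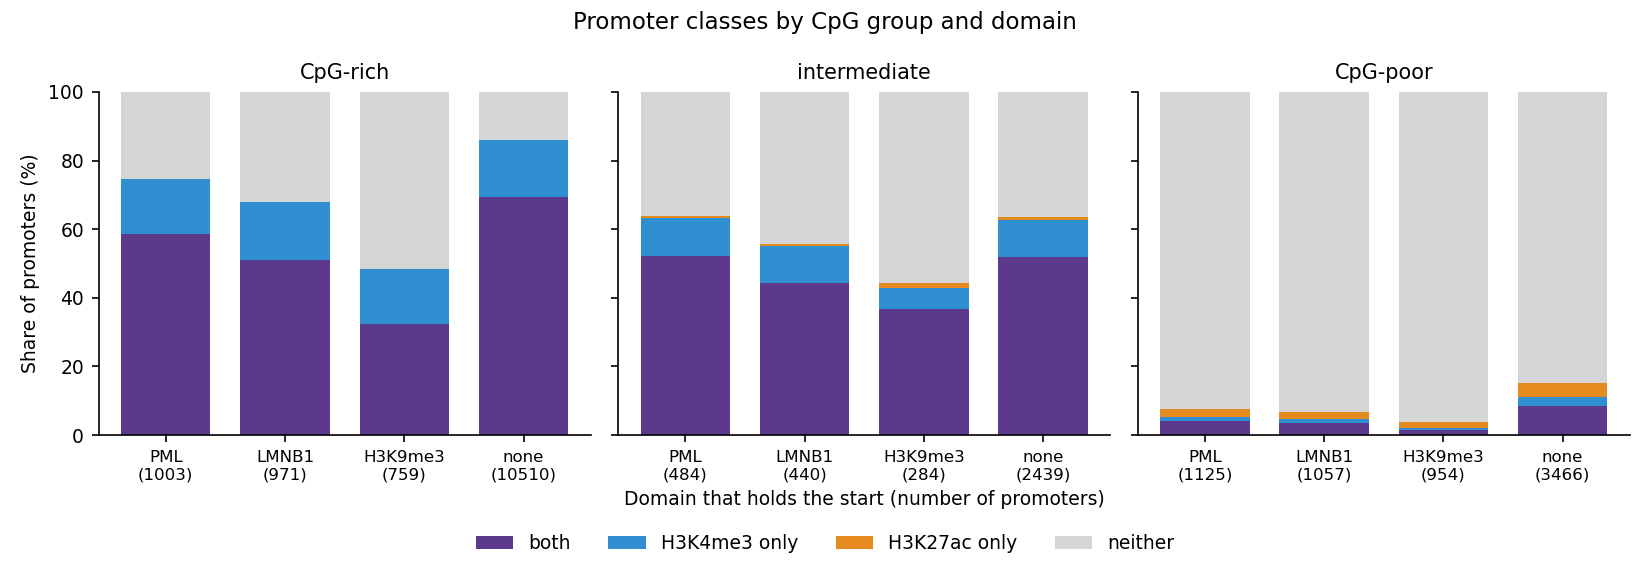
Share of protein-coding promoters (%, y axis) with both marks, H3K4me3 only, H3K27ac only or neither, by the domain that holds the start (PML, for which no condition is named, control LMNB1, control H3K9me3, or none, with the number of promoters), in CpG-rich, intermediate and CpG-poor promoters. Among CpG-rich promoters both marks fall from 69.3% outside domains to 32.4% in H3K9me3 domains while H3K4me3 only stays between 15.9% and 16.9%. The domain lists overlap, and a start in several of them counts in each.

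Zinc finger (ZNF) genes, many of them repressors of transposable elements, had other shares than the other promoters in H3K9me3 domains. Of 234 ZNF promoters there, 205 of them on chromosome 19, 165 had both marks and 24 H3K4me3 only. Of the 1763 other promoters in H3K9me3 domains 199 had both and 121 H3K4me3 only. H3K27ac was thus present at 87.3% of H3K4me3-marked ZNF promoters and at 62.2% of the others in the same kind of domain. ZNF317 (55.3 and 26.95), ZNF460 (44.02 and 38.6) and ZNF587 (52.1 and 27.2), in H3K9me3 domains, had both marks, and ZNF17 (25.9) had H3K4me3 only. Starts in both LMNB1 and H3K9me3 domains but outside PML domains were the least marked: of 182, 14 had both marks and 19 H3K4me3 only. Starts in PML and H3K9me3 domains without LMNB1 had both marks in 64 of 121 cases, and 59 of those 121 were ZNF genes.

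The strongest one-mark promoters within PML domains were of differing kinds. With H3K4me3 only they were KCNS3 (31.6), the neuronal genes MAP2 (28.8, a microtubule protein) and PCLO (28.1, a scaffold of the synapse), GLCCI1 (28.0) and SPECC1 (27.9). PCLO had no H3K27ac within 304 kb, whereas GLCCI1 had it 0.028 kb outside the window. With H3K27ac only they were MACC1 (29.1), RFFL (21.5), ENSG00000288614 (19.8), KRTAP2-3 (15.7) and KRTAP2-1 (14.1). Of 415 olfactory receptor genes 413 had neither mark, against 37.1% of all promoters, and 1 of the family was CpG-rich. PML domains held 309 of the 415 (74.5%, against 13.1% of all starts). LMNB1 domains held 291 and H3K9me3 domains 278, so the place in PML domains was not particular to them.

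The classes were then looked up in the 2 knockdown lists, of 27760 H3K4me3 and 43615 H3K27ac peaks. Condition names are abbreviated in the deposited lists: ct was read as control, pml as knockdown, and domain lists without a prefix as control. Of promoters with both marks in control, 9804 of 9934 (98.7%) had both there too. Of those with H3K4me3 only, 1766 (73.2%) kept the class and 633 had both. Of those with H3K27ac only, 130 (59.1%) kept the class and 73 had both. Of those with neither, 7027 (94.9%) kept the class and 300 had H3K4me3 only. MEN1, KDM5B, CREBBP, MLLT3, RNF2 and AEBP2 were among the promoters with H3K4me3 only that had both in the knockdown lists, and CSF2, CXCL8, LATS2 and S100A2 among those with H3K27ac only that did. PCLO, MAP2, SOX5 and ESR1 kept H3K4me3 only. The share that gained H3K27ac was 42.4% where an H3K27ac peak already lay within 1500 bp of the promoter window in control. It was 22.4% where none lay within 10 kb of that window. The 125 promoters with both marks that had H3K4me3 only in the knockdown lists had a median control H3K27ac fold of 3.43, against 8.45 for those that kept both. With 1 pooled list per condition, these changes cannot be told apart from differences in depth or peak calling between lists.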

How the data were processed

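ChIP-seq was done in MDA-MB-231 cells. Each peak list pools replicates 1 and 2, per its name. The submitters' processing notes list deepTools, MACS2 2.2.7.1, Picard 1.104 and BWA 0.7.12-r1039, with hg38, and give the step of none of them. For each peak the authors deposited a score, a fold enrichment (a ratio over background), −log10 p- and q-values and the offset of the summit. For each domain the authors deposited a score of unstated unit, not used for any value here. The lowest −log10 q was 1.31 in both control peak lists. Depth is unknown. H3K27me3 and input libraries are not analysed here.

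Peaks off chromosomes 1 to 22 and X (0.328% of H3K4me3 and 0.179% of H3K27ac) were left out. Starts came from GENCODE release 44, with the Ensembl canonical transcript for genes. A domain holds a start or a peak midpoint. Genome points stood every 100000 bp outside gaps of 10000 bp or more. Python 3.11.15, numpy 2.4.6, pandas 2.3.3, pysam 0.24.0 and matplotlib 3.10.9 were used, and interval code was tested on simulated data. The 15 lists, 36 families, 11 motifs and members were chosen with earlier results of these data known. The name patterns of interleukins, integrins and initiation factors were narrowed after their members were seen. Genes named are the 10 strongest of each marked class by fold (for both marks by the lower of 2 ranks), up to 4 of each list and family per class, the 5 strongest one-mark promoters in PML domains, the markers, and a few small remainders named after their values were seen. Alternatives varied overlap, window, starts, q, peak number, domain size and motif window. Some sequences and items that these rules would name are not reported here.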

Additional observations from a re-analysis of the deposited data

How the results depend on the processing

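No paired analysis was possible because each mark has 1 pooled list per condition with no value per replicate, and for the same reason no replicate could be left out. Counting the other mark within 1 kb gave 77.1% of H3K4me3 and 41.9% of H3K27ac peaks shared. A −log10 q of at least 5 gave 67.3% and 43.0%, one of at least 10 gave 60.4% and 44.6%, and equal peak numbers 50.3% and 50.2%. The share of H3K4me3 promoters with H3K27ac (80.5%) was 78.3% with 500 bp windows, 81.4% with 2500 bp, 83.3% with any transcript start, 76.6% and 70.8% at the 2 q thresholds, 59.1% with equal peak numbers and 81.2% without overlap outside the window. Promoters with H3K4me3 only numbered 5046 with equal peak numbers. Those with H3K27ac only numbered 344 with 2500 bp windows, 381 with any start and 101 with equal peak numbers. Joining peaks within 1 kb gave median widths of 1824 and 777 bp for H3K4me3 with and without H3K27ac and 1492.5 and 1018 bp for H3K27ac with and without H3K4me3, and the lower q threshold gave 1615, 769, 1215 and 1216 bp, so the widths of the H3K27ac classes then differed by 1 bp. By canonical protein-coding starts, 61.0%, 58.1%, 61.1% and 1.19% of the 4 classes lay within 1 kb. In 100 bp around summits AP-1 letters were found in 1.496%, 1.11%, 1.4997% and 2.88%, against 3.71%, 2.65%, 3.27% and 6.86% in 200 bp. With CpG content taken over 250 bp each way, 87.8% of promoters with both marks, 86.0% with H3K4me3 only and 29.8% with neither were CpG-rich. Domains of at least 500 kb held 18.1% (PML) and 18.9% (H3K9me3) of promoters with neither mark. Except for that pair, no domain share by class left its 95% Wilson interval. Of 1071 recounts of classes within lists and families, 896 stayed within 1.5 times the count given, and 54 of the 175 others came from equal peak numbers. The cause of each shift was not tested.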
